A study of Mus musculus with 20 samples.

Results

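The genes of the perineuronal net were followed in RNA-seq of the hippocampus and the neocortex of miR-324-null and WT mice. They were 10 genes, taken by name, of the 35580 genes to which the transcripts of the 20 samples were summed. Of these, *Acan*, *Bcan*, *Ncan* and *Vcan* encode the lecticans aggrecan, brevican, neurocan and versican, *Tnr* and *Tnc* encode tenascin-R and tenascin-C, *Hapln1*, *Hapln2* and *Hapln4* encode link proteins and *Has3* encodes a hyaluronan synthase. All 10 passed the filter on low counts in every comparison. Each of the 4 groups held 5 samples from male C57BL/6J mice aged 13.5 months, which were either wild-type (WT) or miR-324-null, a global knockout that lacks *Mir324* in every cell. The deletion was made with Cas9 and a pair of guides in zygotes, the mixed C57BL/6 and CBA/Ca founders were backcrossed onto C57BL/6J, and intercrosses of heterozygotes gave a WT line and a null line. The labels give the samples of each group the numbers 1 to 5 but do not tie a hippocampus to a neocortex of the same mouse. The comparisons ask whether the loss of miR-324 changed the net genes in either tissue, and how their expression differed between the tissues.

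Perineuronal nets are lattices of extracellular matrix around the soma and proximal dendrites of certain neurons, above all fast-spiking interneurons that contain parvalbumin and, in the hippocampus, pyramidal neurons of CA2. Hyaluronan, a long sugar chain that synthases of the Has family extrude through the cell membrane, forms the backbone. Lecticans, core proteins with chondroitin sulfate chains, bind hyaluronan at one end, link proteins of the Hapln family hold that bond, and trimeric tenascin-R crosslinks the other ends. Neurons and astrocytes, oligodendrocytes and their precursors all contribute components, and the nets limit plasticity once critical periods have closed.

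In the libraries, estimated counts summed to between 12752439 and 19617765 per sample. The labelled tissues were checked against their markers. The summed level of 7 hippocampal markers lay between 863 and 1065 CPM (gene counts scaled to library size, with TMM factors) in the 10 hippocampus samples and between 235 and 408 in the 10 neocortex samples. Choroid plexus markers stood out in 3 libraries, WT hippocampus 3 (4531 CPM), null hippocampus 5 (3889 CPM) and null neocortex 2 (804 CPM), against at most 139.6 CPM elsewhere. Summed striatal markers ran from 206 to 509 CPM in the null neocortex and from 121 to 331 CPM in the WT neocortex. Since these are pieces of bulk tissue, fewer cells of a type and less RNA per cell cannot be told apart.

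Because the mice lack both arms of miR-324, the mature sequences are shown as RefSeq gives them, with the seed (bases 2 to 8), which pairs with target transcripts, in capitals.
miR-324-5p, chr11:70012060-70012082 (GRCm38.p6, plus strand): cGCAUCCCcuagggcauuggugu
miR-324-3p, chr11:70012095-70012114 (GRCm38.p6, plus strand): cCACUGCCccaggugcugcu
Seed matches were searched on the sense strand of the annotated 3′UTRs of the net genes, whose longest forms summed to 24881 bases. The paper describes a further form of the 3p arm with another seed, and only the sequences shown here were searched. The full seed match to the 5p arm, GGGATGC, was in 0 of the 10 genes and in 9.46% of the 14732 genes with a 3′UTR. For the 3p arm, GGCAGTG was again in 0 of the 10, against 17.0% of genes. The shorter match with an A opposite the first base was in 0 of the 10 for the 5p arm (GGATGCA, 9.68% of genes) and in 1 for the 3p arm (GCAGTGA, 14.5% of genes). That one lies in *Vcan*, at chr13:89712071-89712077 on the minus strand, and is shown in capitals within 30 bases because it was the only match in the set.
Vcan-205 3′UTR: ggacctacagtGCAGTGAcacaaacagact
It belongs to a short transcript, Vcan-205, which received a mean of 0.674 estimated counts and none in 13 of the 20 samples. A match in letters is not evidence that the site was used.

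The link protein genes lie beside lectican genes in the mouse genome, and 3 of the 4 pairs are formed by genes followed here. On chromosome 13, *Vcan* (chr13:89655312-89742509, minus strand) and *Hapln1* (chr13:89539796-89611652, plus strand) are 43659 bases apart. *Bcan* (chr3:87987531-88000230) and *Hapln2* (chr3:88021750-88027583) share the minus strand of chromosome 3 at a distance of 21519 bases. *Ncan* (chr8:70093085-70120873, minus strand) and *Hapln4* (chr8:70083457-70090862, plus strand) are 2222 bases apart. *Acan* (chr7:79053483-79115099, plus strand) ends 2 bases from *Hapln3* on the opposite strand, and whether the reads' strand entered the quantification is not given in the sources used here. The unpaired genes are *Tnr* (chr1:159523769-159931729, plus strand), *Tnc* (chr4:63959785-64047015, minus strand) and *Has3* (chr8:106870242-106884566, plus strand).

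In TPM, the unit scaled to transcript length in which genes can be compared with each other, the 10 genes spanned more than 2 orders of magnitude in every group. *Bcan* was highest, at 198 ± 15.4 TPM in the WT hippocampus and 169 ± 11.3 TPM in the WT neocortex (mean ± SD, n = 5). *Hapln4*, the brain link protein found in nets of brainstem and cortex, came next at 57.0 ± 5.74 and 78.0 ± 6.92 TPM, before *Ncan* at 49.3 ± 4.73 and 53.6 ± 2.48 TPM. In the WT hippocampus the values of *Hapln4* and *Ncan* overlapped, while in the WT neocortex those of *Hapln4* were all higher.

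*Tnr* followed at 28.1 ± 3.36 TPM in the WT hippocampus and 27.5 ± 1.69 TPM in the WT neocortex. *Hapln2*, the link protein of nodes of Ranvier in white matter, stood at 19.0 ± 3.57 and 19.3 ± 2.25 TPM, with values that overlapped those of *Tnr* in the WT hippocampus and the null neocortex. *Hapln1* (10.4 ± 0.68 and 9.96 ± 0.163 TPM) and *Vcan* (7.99 ± 2.78 and 7.43 ± 3.92 TPM) overlapped in every group. The level of *Vcan* in TPM rested largely on fragments, described with the transcripts. Of the TPM of *Hapln2*, 74.5% came from Hapln2-203, annotated as a retained intron. Its coding transcript Hapln2-201 averaged 2.72 TPM over the 20 samples, below the coding Hapln1-201 at 6.50 TPM.

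*Acan*, the lectican most used as a stain for nets, was among the lowest of the set, with 1.65 ± 0.382 TPM in the WT hippocampus and 1.46 ± 0.196 TPM in the WT neocortex. *Tnc* (1.46 ± 0.156 and 0.527 ± 0.136 TPM) and *Has3* (1.04 ± 0.277 and 0.813 ± 0.302 TPM) were as low, and neighbours in the order among these 3 genes overlapped in every group, apart from *Acan* and *Has3* in the null neocortex. The order was the same in both genotypes from *Bcan* down to *Hapln2*.

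**Figure D1:**
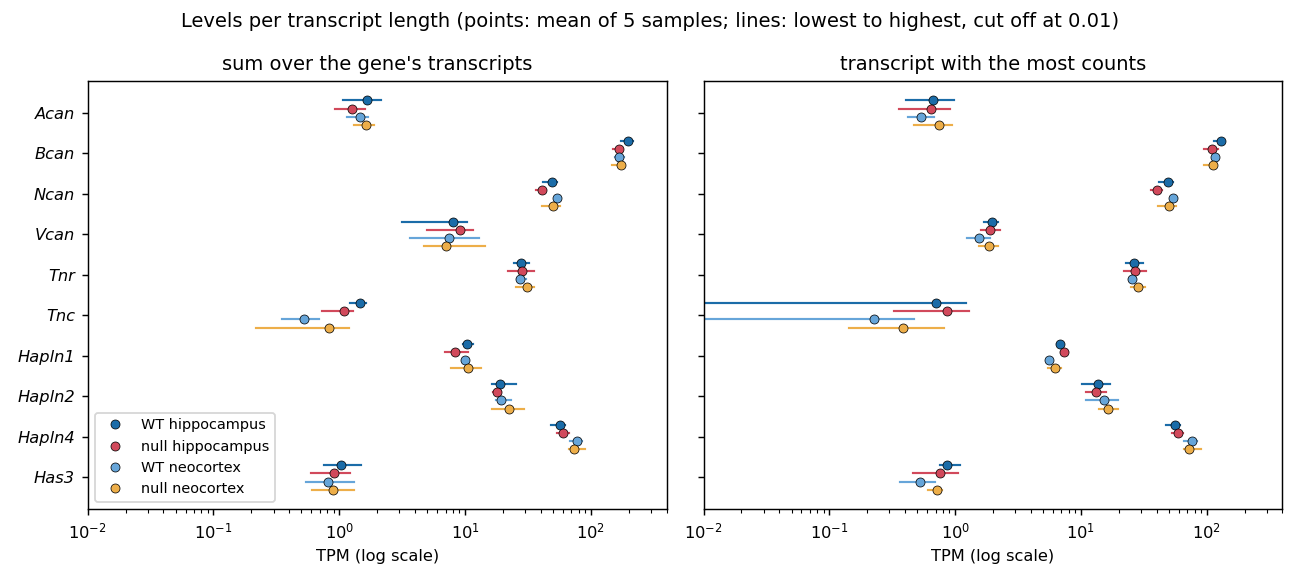
Levels of the 10 genes in TPM on a log axis, as the sum over each gene's transcripts (left) and for the transcript with the most counts (right); points are means of 5 samples and lines run from the lowest to the highest sample. *Bcan* leads at 198 TPM in the WT hippocampus, *Vcan* drops from 7.99 to 1.96 TPM when only its main transcript is taken, and *Tnc*, *Acan* and *Has3* lie lowest. For *Hapln2* the transcript on the right is Hapln2-203, annotated as a retained intron.

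Between genotypes, none of the 10 genes passed the test in the hippocampus, where 17 of 14796 genes (0.115%; 0.0676% higher and 0.0473% lower) were called by edgeR's quasi-likelihood test at a Benjamini-Hochberg adjusted p value of at most 0.05. At an unadjusted p under 0.05, 3 of the 10 passed, *Ncan*, *Bcan* and *Tnc*, all with lower values in miR-324-null samples, against 11.1% of all genes. In the neocortex 0 of the 10 passed, against 47 of 14930 genes (0.315%; 0.161% higher and 0.154% lower), and 0 of the 10 had an unadjusted p under 0.05, against 12.2% of all genes. DESeq2's Wald test called 1 of the 10 in the hippocampus, *Ncan*, and 139 genes in all, and it called none of the 10 in the neocortex. Over the 10 genes the log2 fold changes had a median of -0.16 in hippocampus and 0.14 in neocortex, beside 0.0012 and 0.0046 over all genes tested. For no gene of the set were the genotypes separated without overlap, in either tissue (2.48% and 2.33% of genes were).

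Between tissues, more of the set passed. In WT mice 5 of the 10 differed between hippocampus and neocortex, 4 higher in the hippocampus (*Tnc*, *Has3*, *Hapln1* and *Bcan*) and 1 lower (*Hapln4*). Of all 14894 genes tested there, 36.1% were called, 18.1% higher and 18.0% lower, and an unadjusted p under 0.05 was reached by the same number, 5 of the 10, against 44.1% of genes. In miR-324-null mice 2 of the 10 were called, *Hapln1* higher and *Ncan* lower in the hippocampus, against 27.4% of 15033 genes (13.8% higher and 13.6% lower). The values of the tissues did not overlap for 3 of the 10 in WT mice, *Tnc*, *Hapln1* and *Hapln4* (25.9% of genes), and for 1 in miR-324-null mice, *Hapln1* (20.8% of genes). Whether the effect of genotype differed between the tissues was tested as an interaction over the 20 samples, and 0 of the 10 passed, against 3 of 15391 genes (0.0195%). At an unadjusted p under 0.05 there was 1 of the 10, *Tnc*, against 5.57% of genes, and DESeq2's Wald test called 0 of the 10 for the interaction.

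**Figure D2:**
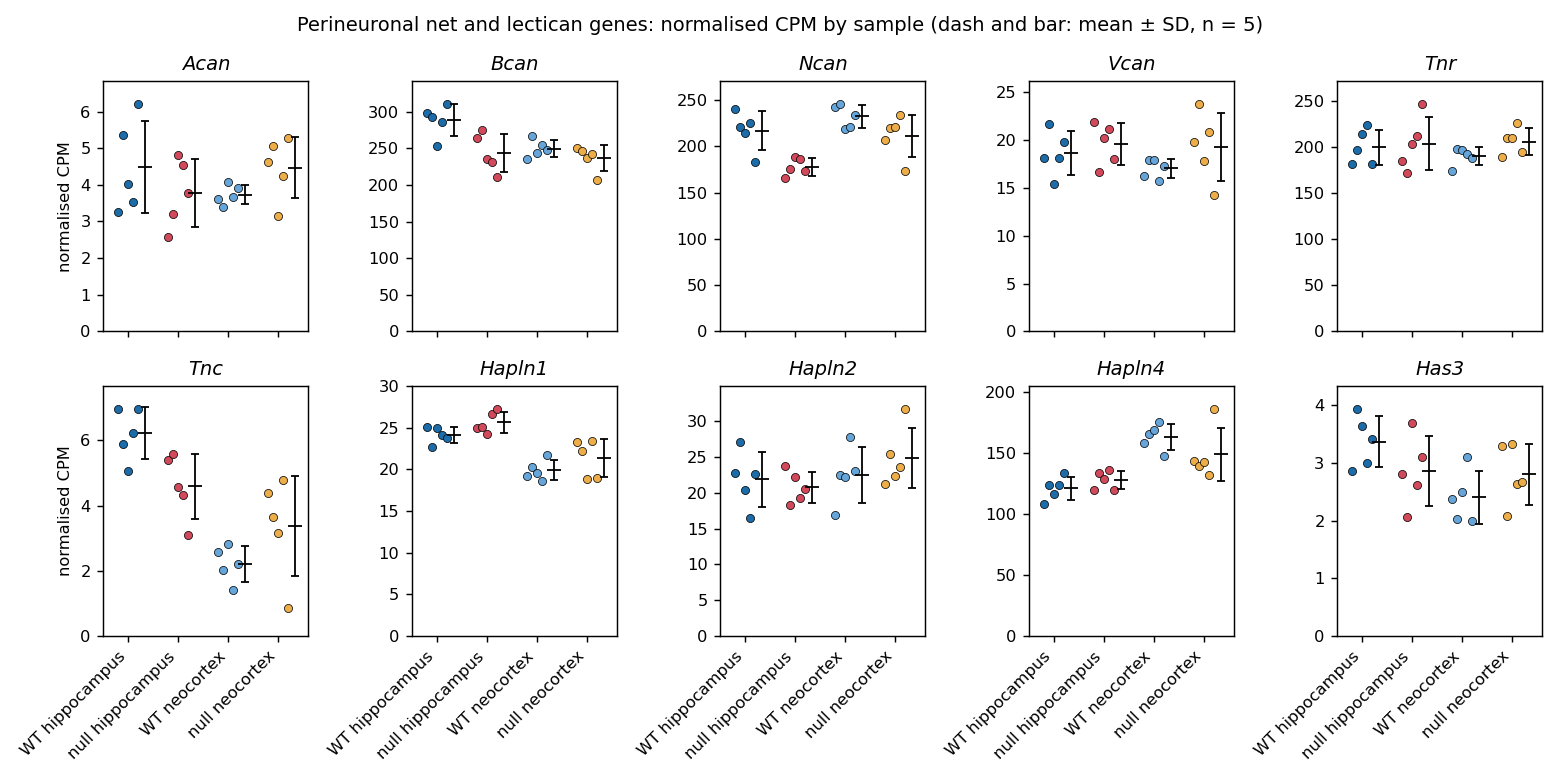
Normalised CPM of each gene in every sample, with axes from 0; each point is a sample, and the dash and bar give the mean and SD of the 5 samples of a group. *Tnc* is highest in the WT hippocampus (5.07 to 6.97 CPM), *Hapln4* is lower in the WT hippocampus than in the WT neocortex, and 4 of 5 WT hippocampus samples lie above every null hippocampus sample for *Ncan*.

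Among the lecticans, *Ncan*, whose product is made mainly by neurons and astrocytes of the developing brain and persists in nets, had the smallest p value of the set between genotypes. Its levels were 241, 221, 214, 226 and 183 CPM in WT hippocampus samples 1 to 5 and 166, 176, 188, 186 and 173 CPM in the miR-324-null ones. WT sample 5 lay among the null samples and the other 4 WT samples lay above them all. The log2 fold change was -0.29 ± 0.07 (SE), with an adjusted p value of 0.192 in edgeR's quasi-likelihood test and 0.0192 in DESeq2's Wald test. The neocortex means were 232 ± 12.4 CPM for WT and 211 ± 22.8 CPM for null samples (log2 fold change -0.13 ± 0.07, edgeR adjusted p = 0.5), and the interaction gave no call (log2 difference -0.15 ± 0.10, edgeR adjusted p = 0.945). Between tissues in WT mice, the *Ncan* means were 217 ± 21.3 CPM in the hippocampus and 232 ± 12.4 CPM in the neocortex, without a call. In null mice *Ncan* was lower in the hippocampus by a log2 fold change of -0.24 ± 0.08 (edgeR adjusted p = 0.0362). That call was lost, with adjusted p values from 0.0567 to 0.0919, when any of null hippocampus 1, 2 or 5 or null neocortex 1, 2, 3 or 4 was left out.

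*Bcan* encodes brevican, the lectican that astrocytes supply in quantity to the adult brain. Its levels were 299, 293, 254, 286 and 311 CPM in WT and 265, 276, 236, 232 and 211 CPM in null hippocampus samples. The groups overlapped through WT sample 3, and the log2 fold change of -0.24 ± 0.08 had an edgeR adjusted p value of 0.32. In the WT neocortex the values ran from 236 to 267 CPM, so that *Bcan* was higher in the WT hippocampus by a log2 fold change of 0.21 ± 0.06 (edgeR adjusted p = 0.0102). In null mice this tissue difference was 0.05 ± 0.08 (edgeR adjusted p = 0.684). The interaction, which tests those tissue differences against each other, was not called (-0.17 ± 0.10, edgeR adjusted p = 0.916). Of 7 astrocyte markers, 4 were called higher and 1 lower in the WT hippocampus, where 18.1% and 18.0% of all genes were. Their sum ran from 4811 to 6012 CPM there and from 4705 to 5377 CPM in the WT neocortex. The part of these markers in the *Bcan* values was not tested.

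The other lecticans gave no call in any comparison. *Acan* ranged from 3.25 to 6.21 CPM in the WT hippocampus, from 2.58 to 4.80 in the null hippocampus, from 3.40 to 4.08 in the WT neocortex and from 3.15 to 5.27 in the null neocortex. Its log2 fold changes between genotypes were -0.24 ± 0.22 in the hippocampus and 0.26 ± 0.15 in the neocortex (edgeR adjusted p = 0.731 and 0.502), and between tissues they were 0.26 ± 0.18 in WT and -0.23 ± 0.19 in null mice (edgeR adjusted p = 0.288 and 0.422). *Vcan*, which oligodendrocyte precursors make in the adult brain, ranged from 14.3 to 23.8 CPM over all 20 samples, with log2 fold changes of 0.07 ± 0.10 and 0.19 ± 0.11 (edgeR adjusted p = 0.839 and 0.548) between genotypes and 0.13 ± 0.09 in WT and 0.03 ± 0.13 in null mice between tissues (edgeR adjusted p = 0.275 and 0.887). All groups overlapped for both genes.

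Of the tenascins, *Tnr*, the crosslinker made by oligodendrocytes and interneurons, was the steadiest gene of the set by fold change. It lay between 171 and 247 CPM in all samples, and its log2 fold changes were 0.03 ± 0.10 between genotypes in the hippocampus and 0.07 ± 0.06 between tissues in WT mice (edgeR adjusted p = 0.945 and 0.422). In the neocortex null samples ranged from 189 to 226 CPM and WT samples from 174 to 198 CPM, with a log2 fold change of 0.12 ± 0.06 (edgeR adjusted p = 0.41).

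*Tnc* encodes tenascin-C, a matrix protein of radial glia and astrocytes that is scarce in most of the adult forebrain, and it showed the widest difference between tissues. The WT hippocampus held 6.96, 5.88, 5.07, 6.22 and 6.97 CPM and the WT neocortex 2.58, 2.03, 2.83, 1.41 and 2.20 CPM. Every WT hippocampus sample thus exceeded every WT neocortex sample, and the fold change was 2.80 (log2 1.48 ± 0.17, edgeR adjusted p = 1.82e-05). All alternative settings and all removals of a single sample kept this call, with log2 fold changes from 1.37 to 1.60 when a sample was left out.

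In null mice the tissues overlapped for *Tnc*. The null hippocampus held 5.38, 5.59, 4.55, 4.32 and 3.10 CPM and the null neocortex 4.40, 3.64, 3.15, 4.78 and 0.869 CPM. Null neocortex 5 was the lowest of all 20 samples, whereas the other 4 null neocortex samples lay above every WT neocortex sample. The log2 fold change between tissues was 0.46 ± 0.33 in null mice (edgeR adjusted p = 0.341). Between genotypes it was -0.44 ± 0.16 in the hippocampus (edgeR adjusted p = 0.361) and 0.60 ± 0.35 in the neocortex (edgeR adjusted p = 0.528). The interaction, -1.04 ± 0.40 on the log2 scale, had an unadjusted p value of 0.0176 and an edgeR adjusted p value of 0.852.

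The genotype difference of *Tnc* in the neocortex turned on null neocortex 5. Without that sample the log2 fold change was 0.85 and passed (edgeR adjusted p = 0.0381), as was *Hapln4* (-0.22, edgeR adjusted p = 0.0496), so that 2 of the 10 genes passed, and the number of all genes called went from 47 to 566. The tissue markers moved with the same samples. The summed hippocampal markers were 408, 382, 345, 363 and 236 CPM in null neocortex samples 1 to 5 and 235 to 293 CPM in the WT neocortex, with 7 of 7 markers above 0 counts in every sample. Summed neocortical markers were 694, 656, 738, 778 and 971 CPM in the null samples and 841 to 945 CPM in the WT ones. Null neocortex 5, with the least *Tnc*, thus had fewer hippocampal and more neocortical marker counts than the other null neocortex samples. The part of tissue composition in the *Tnc* values was not tested.

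**Figure D3:**
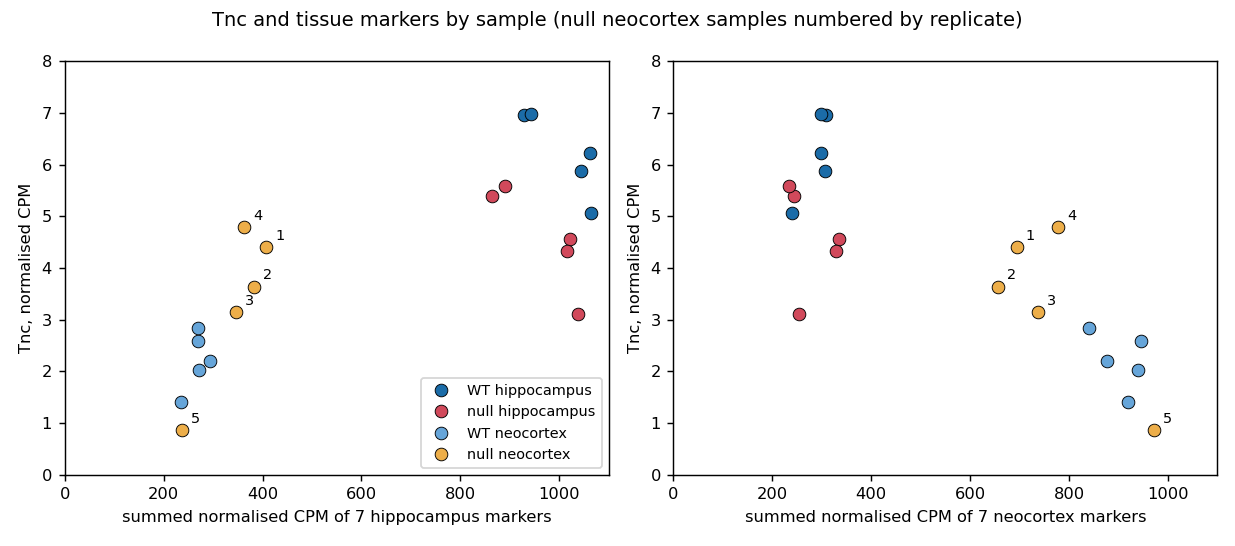
Normalised CPM of *Tnc* in each of the 20 samples against the summed CPM of 7 hippocampal markers (left) and 7 neocortical markers (right); colours give the 4 groups and numbers the null neocortex replicates. Null neocortex samples 1 to 4 lie above all WT neocortex samples on both axes of the left panel, null neocortex 5 lies lowest in *Tnc* at 0.869 CPM, and the hippocampus samples lie apart at 863 CPM of markers or more.

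Among the link proteins, *Hapln1*, the cartilage link protein that is also needed for nets on cortical neurons, was called between tissues in both genotypes. Its levels were 25.1, 22.7, 25.0, 24.2 and 23.7 CPM in the WT hippocampus and 19.2, 20.3, 19.5, 18.6 and 21.8 CPM in the WT neocortex. In null mice the hippocampus held 25.0, 25.1, 24.3, 26.6 and 27.3 CPM and the neocortex 23.3, 22.2, 18.9, 23.4 and 18.9 CPM. No hippocampus sample fell into the range of the neocortex of the same genotype. The log2 fold change was 0.28 ± 0.06 in WT (edgeR adjusted p = 0.00187) and 0.27 ± 0.08 in null mice (edgeR adjusted p = 0.0207). The genotypes differed by 0.09 ± 0.06 in hippocampus and 0.11 ± 0.08 in neocortex samples on the log2 scale, without a call (edgeR adjusted p = 0.616 and 0.63).

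The value of *Hapln1* depended on how transcript length was treated. With the average length of its transcripts as an offset, as Tximport computes it, the log2 fold change became 0.09 between tissues in WT mice (adjusted p = 0.378), -0.26 in null mice (adjusted p = 0.254) and -0.34 between genotypes in the hippocampus (adjusted p = 0.384). This offset is computed from transcript shares, of which those of *Hapln1* are described further on. In null mice the call was also lost without null neocortex 3 (log2 fold change 0.23, edgeR adjusted p = 0.0535).

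*Hapln4*, a link protein that pairs with brevican at perisomatic synapses, was the only gene of the set called lower in the WT hippocampus. It stood at 108, 124, 116, 124 and 133 CPM there and at 158, 165, 169, 175 and 148 CPM in the WT neocortex. The ranges were apart, with a ratio of 0.743 (log2 fold change -0.43 ± 0.06, edgeR adjusted p = 9.78e-05), and every alternative setting and removal kept the call. In null mice the difference was -0.21 ± 0.09 (edgeR adjusted p = 0.094), with 119.8 to 136 CPM in the hippocampus and 144, 139, 143, 132 and 186 CPM in neocortex samples 1 to 5. Null neocortex 5 again stood apart from its group. The genes taken as markers of fast-spiking parvalbumin interneurons lay on the same side, with 6 of 7 called lower in the hippocampus in each genotype. Of all genes, 18.0% were called lower there in WT and 13.6% in null mice. Their sum ran from 660 to 829 CPM in the WT hippocampus and from 837 to 950.0 CPM in the WT neocortex. Not all are particular to these cells: *Gad1* and *Gad2*, shared with other interneurons, averaged 256 and 114 CPM in the WT hippocampus, where the sum averaged 711 CPM. The part of these markers in the *Hapln4* values was not tested.

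*Hapln2* was not called in any comparison. It ranged from 16.5 to 31.8 CPM over the 20 samples, and its log2 fold changes were -0.08 ± 0.12 and 0.15 ± 0.13 between genotypes and -0.03 ± 0.13 and -0.25 ± 0.11 between tissues (edgeR adjusted p = 0.855, 0.682, 0.882 and 0.119). Markers of mature oligodendrocytes, cells that form nodes, were likewise not called, 0 of 7 in each of these comparisons.

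*Has3*, one of the synthases that make hyaluronan, was low but measured in all samples. Its levels were 2.86, 3.94, 3.64, 2.99 and 3.41 CPM in the WT hippocampus and 2.38, 2.03, 2.50, 3.11 and 1.99 CPM in the WT neocortex, overlapping through neocortex sample 4. The log2 fold change of 0.49 ± 0.16 passed narrowly (edgeR adjusted p = 0.0317), and the call was lost when any of WT hippocampus 2 or 3 or WT neocortex 1, 2 or 5 was left out (adjusted p = 0.0542 to 0.0827). Its log2 fold changes for genotype were -0.23 ± 0.17 in hippocampus and 0.22 ± 0.18 in neocortex samples (edgeR adjusted p = 0.649 and 0.687). Its relatives *Has1* and *Has2* were scarcer, with at most 23 and 9 counts in any sample.

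**Figure D4:**
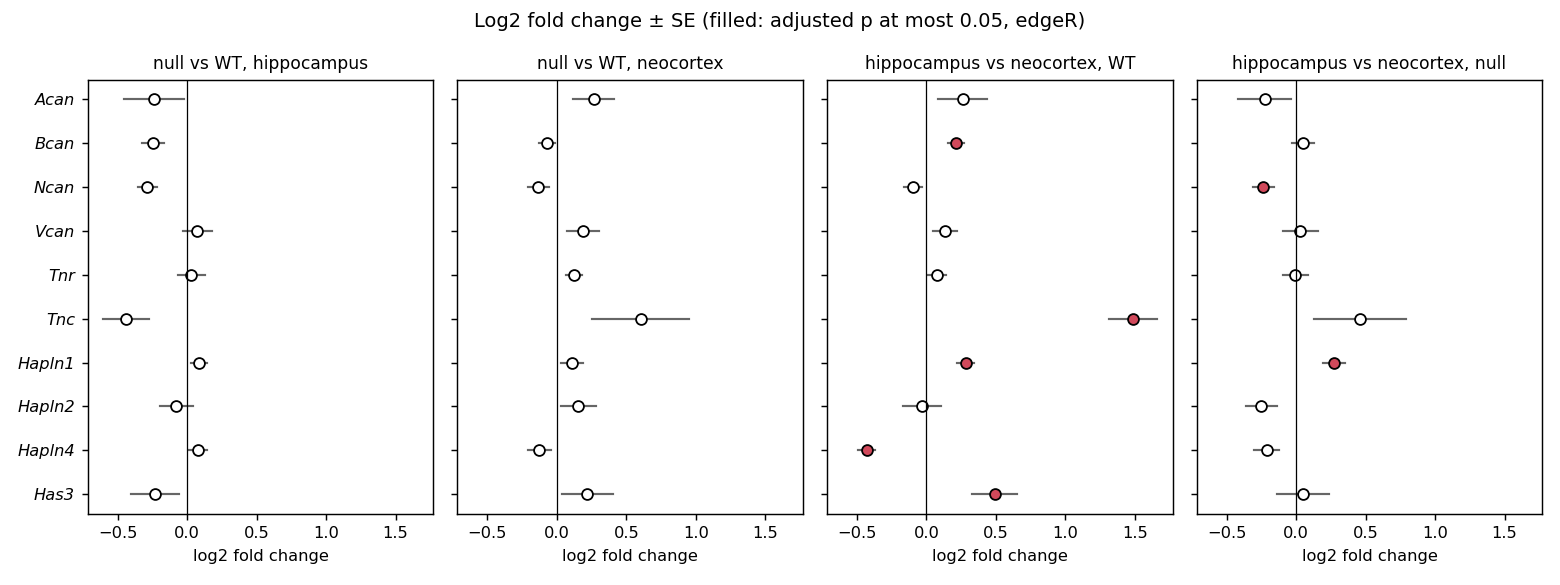
Log2 fold change ± SE of the 10 genes in the genotype comparisons (null against WT) and the tissue comparisons (hippocampus against neocortex); filled points have an adjusted p value of at most 0.05 in edgeR's quasi-likelihood test. No point is filled in the genotype panels, and 5 are filled between tissues in WT mice and 2 in null mice, with *Tnc* in WT mice farthest from 0 at 1.48.

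Transcripts were compared by their share of each gene's TPM, for the 18 transcripts with a mean share of at least 10% in genes with more than 1 such transcript. Between genotypes none of the 18 was called by the two-sided exact permutation test with Benjamini-Hochberg adjustment, and the smallest p value that 5 samples against 5 allow is 0.00794. Over 18 tests a single pair of transcripts at that p value reaches an adjusted p of only 0.0714. A change confined to a gene with a pair of transcripts could therefore not be called, however clear. Between tissues 3 shares were called in WT mice, those of Bcan-206, Hapln1-201 and Hapln1-202, and none in null mice. The latter pair sum to the whole of *Hapln1*, so the same difference entered the adjustment under both names. All 3 calls rest on that repeat. All 3 calls, each at an adjusted p of 0.0476, were lost when transcripts from a mean share of 5% on were tested (0 called). Of the 39 annotated transcripts of the set, *Ncan* has a single one, and Tnr-202 and Hapln4-201 held 99.7% and 99.8% of the counts of their genes.

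*Hapln1* has a coding transcript of 5715 bases, Hapln1-201, and a fragment of 464 bases annotated as a retained intron, Hapln1-202. The fragment received a mean of 8.43 of the gene's counts, or 2.46%, but 33.8% of its TPM because it is so short. It made up 34.8 ± 3.04% of the TPM in the WT hippocampus and 43.8 ± 1.46% in the WT neocortex, which differed (exact permutation test, p = 0.00794, adjusted p = 0.0476).

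In the null hippocampus the fragment had 0, 0, 5.33, 5.96 and 0 counts in samples 1 to 5, against 6.56 to 11.2 counts in the WT hippocampus. Its share of TPM there was 9.66 ± 13.3%, below all WT samples (exact permutation test, p = 0.00794, adjusted p = 0.0714). The summed TPM of *Hapln1* was 10.4 in the WT and 8.32 in the null hippocampus, while that of the coding transcript was 6.79 ± 0.306 in WT and 7.36 ± 0.502 in null samples. The offset for transcript length rests on the same shares.

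For *Bcan*, the coding Bcan-201 held 83.6% of the counts and the retained-intron transcript Bcan-206, of 1473 bases, held 15.6%. By TPM, Bcan-206 made up 30.3 ± 0.861% in the WT hippocampus and 26.4 ± 1.32% in the WT neocortex, without overlap (exact permutation test, p = 0.00794, adjusted p = 0.0476). In null mice the shares were 29.5 ± 2.65% in the hippocampus and overlapped those of the neocortex. By share of counts the difference in WT mice was called too, at 16.6% and 14.1% (exact permutation test, adjusted p = 0.0437). That adjusted value rests on a tie, since Vcan-202 had the same smallest possible p value in that test. Neither would have been called without the other.

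*Vcan* is spliced into forms that differ by 2 large exons, of 2880 and 5217 bases, which carry the sites for chondroitin sulfate. Vcan-203, with both exons, held 73.6% of the counts. Vcan-202, with the exon of 2880 bases alone and known as V2, held 19.8%. Vcan-206, with only the exon of 5217 bases, held 0.599% and had counts in 1 sample, and Vcan-201, with neither, held 0.707%.

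By counts, Vcan-202 took 5.35, 14.6, 10.4, 17.3 and 7.71% in the WT hippocampus and 40.4, 20.1, 18.2, 22.9 and 20.5% in the WT neocortex. The samples did not overlap (exact permutation test, p = 0.00794, adjusted p = 0.0437), though the adjusted value rests on the tie with Bcan-206. By TPM the same share was 7.64 ± 2.39% and 21.1 ± 14.4% and was not called (exact permutation test, p = 0.0556, adjusted p = 0.2). The short Vcan-204, of 294 bases and 2.58 counts on average, held 38.3% of the gene's TPM over all samples, with means of 43.9% in the WT hippocampus and 22.3% in the WT neocortex, and its part in the lost call was not tested. Null mice showed no such separation, with 0 to 33.5% in the hippocampus and 13.4 to 31.7% in the neocortex.

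*Hapln2* was read mostly from Hapln2-203, annotated as a retained intron, with 85.7% of the counts, while the coding Hapln2-201 held 11.4%. *Acan* was divided between the full Acan-201 of 7355 bases and the shorter Acan-202, which had 30.3% of the counts but 56.8% of the TPM. The coding forms of *Tnc* are nearly alike, and their estimates jumped between samples: Tnc-201 had almost none of the gene's counts in some samples and nearly all in others. The tissue difference of *Tnc* is therefore given for the gene alone.

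**Figure D5:**
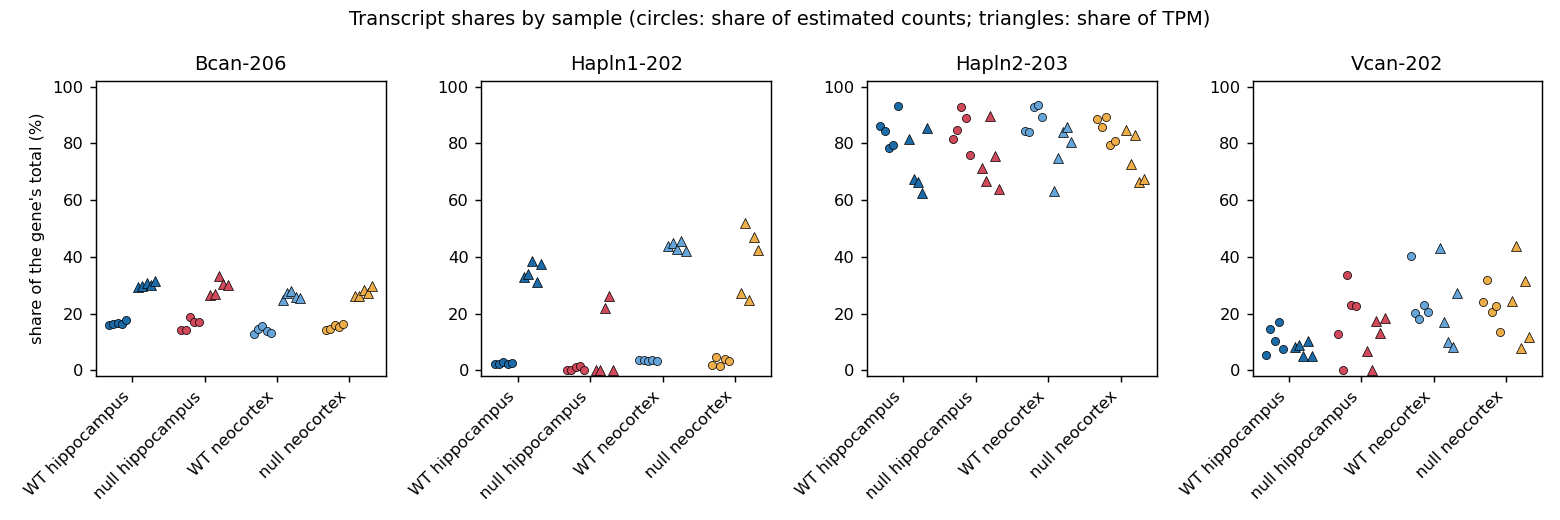
Share of each gene's total taken by Bcan-206, Hapln1-202, Hapln2-203 and Vcan-202 in the 20 samples, as a percentage of estimated counts (circles) and of TPM (triangles), by group. Hapln1-202 takes few of the counts but up to 51.8% of the TPM, and Vcan-202 is lower in the WT hippocampus than in the WT neocortex by counts.

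The wider pathway was followed in 51 genes of 5 lists, which cover the synthesis and breakdown of hyaluronan, the chondroitin sulfate chain, other proteoglycans, proteases that cleave lecticans, and receptors and ligands. Between genotypes 0 of 48 genes tested were called in the hippocampus, where *Dcn* and *Crtac1* had the smallest p values (log2 fold change 1.04 and 0.35, edgeR adjusted p = 0.321 and 0.351). In the neocortex 1 of 49 was called, *Ust*, and *Dsel* came next (0.32, edgeR adjusted p = 0.199). The interaction called 0 of 49, with *Ust* (-0.58, edgeR adjusted p = 0.23) and *Cspg4* (-0.20, edgeR adjusted p = 0.889) first. Between tissues 23 of 48 (47.9%) were called in WT mice, 16 higher and 7 lower in the hippocampus, and 18 of 49 (36.7%) in null mice, 9 in each direction. Over all genes the shares called were 36.1% in WT mice (18.1% higher and 18.0% lower) and 27.4% in null mice, and the difference of the lists from all genes was not tested.

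*Ust* adds sulfate to the uronic acids of chondroitin and dermatan sulfate. It stood at 16.7, 13.2, 15.2, 13.1 and 14.8 CPM in the WT neocortex and at 25.2, 22.3, 23.7, 21.2 and 18.6 CPM in the null neocortex. All null samples, replicate 5 included, lay above all WT samples (log2 fold change 0.61 ± 0.09, edgeR adjusted p = 0.0123). The gene was also 4.37 times as high in the hippocampus as in the neocortex of WT mice (log2 fold change 2.13, edgeR adjusted p = 4.75e-10) and 2.95 times in null mice (1.56, edgeR adjusted p = 4.17e-07). The hippocampal markers were higher in 4 of these 5 null neocortex samples than in the WT neocortex, and their part in the *Ust* values was not tested.

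In the chain synthesis list, 7 of 19 genes tested were higher and 2 lower in the WT hippocampus, where 18.1% and 18.0% of all genes were. Apart from *Ust*, the higher ones were the sulfotransferases *Chst7* (log2 fold change 1.03), *Chst11* (0.63), *Chst15* (0.47) and *Chst12* (0.23), the epimerase gene *Dsel* (0.27) and *Chpf* (0.24), which takes part in chain elongation. Lower were *Chsy3* (-1.27), another elongation enzyme, and *Csgalnact1* (-0.71), whose product starts the chain. In null mice *Ust*, *Chst11* (0.68) and *Chst12* (0.30) were higher and *Chsy3* (-1.17) and *Csgalnact1* (-0.75) lower.

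Of the hyaluronan list, *Cd44*, a receptor, and *Cemip*, which takes part in its breakdown, were called higher in the WT hippocampus (1.58 and 0.65, of 7 tested), and *Cemip* in null mice (0.50, of 8). Among other proteoglycans, *Dcn* and *Cspg4* were higher (1.73 and 0.17) and *Cspg5* lower (-0.34) in WT mice, out of 5, with *Dcn* (2.41) and *Cspg5* (-0.30) called in null mice. Of 7 protease and inhibitor genes, *Adamts9* (1.85) and *Adamts1* (0.45) were higher and *Adamts15* (-0.61) lower in the WT hippocampus. In null mice *Adamts9* was higher (1.56), and *Adamts15* (-0.61), *Adamts5* (-0.65) and *Adamts4* (-0.39) were lower.

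Among 10 receptors and ligands, *Sema3a*, a guidance cue held in nets by chondroitin sulfate, was 6.00 ± 3.30 CPM in the WT hippocampus and 28.8 ± 4.87 CPM in the WT neocortex (log2 fold change -2.25, and -2.88 in null mice). *Nptx2*, a synaptic pentraxin, was lower too (-1.44 and -1.18). Also called in WT mice were *Crtac1* (0.79), *Rtn4rl1* (0.35) and *Otx2* (2.58) as higher and *Rtn4r* (-0.37) as lower. *Otx2* was 13.4 CPM in WT hippocampus 3, one of the libraries with choroid plexus markers, and at most 1.59 CPM in the other 4 WT hippocampus samples. In null mice *Crtac1* (0.90), *Rtn4rl1* (0.53) and *Rtn4rl2* (0.27) were higher and *Ptprf* (-0.43) lower.

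To see which genes varied most like each net gene among samples of the same group, deviations from the group means of log2 CPM were correlated over the 20 samples, as a description, since the samples also share depth and dissection. *Tnc* was closest to *Necab2* (Pearson r = 0.893), a marker of CA2 neurons, then *Wdr6* (0.89) and *Dpysl5* (0.876). *Necab2* stood at 57.8, 46.9, 46.3, 53.0 and 19.7 CPM in null neocortex samples 1 to 5, low in replicate 5 as *Tnc* was. The 6 CA2 markers, *Necab2* among them, summed to 302, 341, 356, 302 and 286 CPM there. A link of *Tnc* to CA2 neurons was not tested. *Bcan* was closest to *Slc25a18* (0.895), a glutamate carrier of astrocyte mitochondria, *Ccdc106* (0.849) and *Cdk10* (0.841).

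*Hapln1* was nearest to *Vcam1* (0.893), *Arhgef26* (0.888) and *Dpyd* (0.797), and *Hapln2* to *Ybx3* (0.812), *Zfpl1* (0.789) and *Mobp* (0.783), a myelin protein gene. For *Tnr* the nearest were *Tmem131* (0.892), *Pcdhga10* (0.852) and *Elmo2* (0.852), for *Ncan* *Pcyt1b* (0.857), *Caln1* (0.853) and *Trps1* (0.845), and for *Hapln4* *Ublcp1* (0.872), *Hbs1l* (0.855) and *Nasp* (0.803). *Vcan* was nearest to *Plekhg1* (0.844), *4930402H24Rik* (0.811) and *Pde1c* (0.811), *Acan* to *Snrk* (0.794), *Klhl28* (0.79) and *G2e3* (0.783), and *Has3* to *Gm43960* (0.821), *Slc4a11* (0.774) and *Map3k6* (0.747). Within the set the highest values were those of *Tnc* with *Vcan* (0.643), *Bcan* (0.627) and *Ncan* (0.524).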

How the data were processed

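The authors prepared stranded mRNA libraries, sequenced them on a NextSeq 500 and quantified the reads with kallisto against the mouse GRCm38 transcriptome of Ensembl release 92, whose version of kallisto is not given in the sources used here. For each transcript and sample the authors deposited estimated counts, which are not scaled by depth, and TPM, which are scaled to effective transcript length and library size. Of 115270 transcripts, 113580 were matched to a GENCODE annotation of GRCm38 and 1690 were left out. Estimated counts were summed per gene and rounded to whole numbers.

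Genes were filtered with filterByExpr and tested with edgeR 4.0.16 (TMM, quasi-likelihood, Benjamini-Hochberg over all genes tested) in R 4.3.3, each comparison on its own 10 samples and the interaction on 20. Fold changes are null relative to WT or hippocampus relative to neocortex. Transcript shares were compared by two-sided exact permutation tests with scipy 1.17.1. P-values set each difference against the spread between these samples. The edgeR steps were tested on simulated counts. The settings varied were the size factors (those of DESeq2), the filter (none), the test (DESeq2 1.42.0), the transcript-length offset of Tximport, a replicate block, a fit of all 20 samples and leaving out each sample. Removal of the libraries highest in choroid plexus or striatal markers was added after seeing the data. The genes followed, the pathway and marker lists and the rule for named genes (all 10 genes, the pathway genes called or of the 2 smallest p values in a comparison, and the 3 most alike genes) were chosen with earlier results of these data known. *Has1*, *Has2* and *Hapln3* are named beyond that rule.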

Additional observations from a re-analysis of the deposited data

Results flagged for a closer look

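In groups of 5 samples, the highest or lowest sample was checked by Dixon's test in 80 groups of values (the 10 genes and 10 marker lists in 4 groups), of which chance alone passes about 1 in 20. *Hapln4* was the only gene of the set to pass, with 186 CPM in null neocortex 5 and 132 to 144 CPM in the other null neocortex samples.

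Among marker sums, choroid plexus markers reached 4531 CPM in WT hippocampus 3, 3889 CPM in null hippocampus 5 and 804 CPM in null neocortex 2. Fibroblast markers of meninges and vessels were high in the first of these libraries (263 CPM, others 60.9 to 112) and the second (166 CPM, others 48.1 to 78.9). The sum of neocortical markers was lowest in WT hippocampus 3 (239 CPM, others 298 to 309). Mature oligodendrocyte markers were low in null hippocampus 5 (4223 CPM, others 5295 to 5504) and high in null neocortex 2 (7492 CPM, others 5028 to 5517). Striatal markers were high in WT neocortex 2 (331 CPM, others 121 to 169.8).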

How the results depend on the processing

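The differences of *Tnc*, *Hapln4* and *Bcan* between tissues in WT mice were called under all alternatives and with each sample left out. Over all settings and removals, 922 log2 fold changes kept their direction and stayed called or uncalled, 24 lost a call, 4 gained one and 30 changed direction. Most of the 922 had no call in the main setting, so that count says little about how stable the calls were. The calls of *Has3* between tissues in WT mice and of *Ncan* in null mice were lost in many settings. The limits are 5 samples per group and, for *Tnc*, *Has3* and *Acan*, few counts per library (16 to 107 for *Tnc*).

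DESeq2's Wald test called 1 of the 10 genes (*Ncan*) and 139 genes in all between genotypes in the hippocampus, 240 genes in the neocortex and 11 in the interaction, against 17, 47 and 3 with edgeR. With all 20 samples in 1 fit, 83 genes were called in the hippocampus, and *Hapln4* passed between tissues in null mice (adjusted p = 0.0358). Without the filter on low counts *Has3* lost its call between tissues (adjusted p = 0.0553).

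With the length offset, 30 genes were called between genotypes in the neocortex, 1 in the interaction, 3 of the 10 genes between tissues in WT mice and 0 in null mice. In the same setting the log2 fold change of *Hapln1* was -0.34 between genotypes in the hippocampus and -0.26 between tissues in null mice, that of *Vcan* -0.13 between genotypes in the neocortex and 0.33 in the interaction, and that of *Hapln2* 0.0055 between tissues in WT mice. The mean TPM of *Hapln1* was lower in the null hippocampus than in the null neocortex, while its log2 ratio in CPM was 0.26. With transcripts from a 5% mean share on, 0 were called between tissues in WT mice, where more tests enter the adjustment.

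The numbers in the labels were not taken to pair the samples, since in no comparison did all 5 same-numbered pairs have deviations that correlated by over 0.1. Between genotypes r ran from -0.17 to 0.12, and between tissues from -0.10 to 0.10 in WT and from 0.017 to 0.18 in null mice, where 3 of the 5 exceeded 0.1 and correlated best with their own number. This is a hint from the data, and whether the tissues share mice is not given by the labels. With the replicate block, 4 genes were called in the hippocampus and 30 in the neocortex between genotypes. A WT and a null sample cannot share a mouse, so the number cannot stand for a mouse in those comparisons. Between tissues in WT mice, *Has3* lost its call with the block (adjusted p = 0.0657).

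Without the 3 libraries highest in choroid plexus markers, 0 of the 10 genes were called between tissues in null mice and 1 gene in the interaction, and log2 fold changes of *Tnr* between genotypes in the hippocampus (-0.026), *Hapln2* between tissues in WT mice (0.00089) and *Has3* in null mice (-0.073) changed sign. Without the neocortex library highest in striatal markers in each genotype, 0 of the 10 were called between tissues in null mice, 30 genes between genotypes in the neocortex and 1 in the interaction, and *Tnr* stood at 0.0012 between tissues in null mice. Both settings also cost the call of *Has3* in WT mice (adjusted p = 0.0592 and 0.0755).

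With 1 sample left out, the genes called between genotypes numbered 10 to 31 in the hippocampus and 27 to 566 in the neocortex, where 0 to 2 of the 10 were called, both only without null neocortex 5. Between tissues in null mice 0 to 2 of the 10 were called, and 1 to 20 genes in the interaction, most without null neocortex 5. Log2 fold changes that crossed 0 were those of *Tnr* (-0.050 to 0.085) and *Hapln2* (-0.16 to 0.012) between genotypes in the hippocampus, *Hapln2* (-0.12 to 0.062) between tissues in WT mice, *Vcan* (-0.063 to 0.12), *Tnr* (-0.084 to 0.051) and *Has3* (-0.063 to 0.15) between tissues in null mice and *Hapln1* (-0.058 to 0.017) in the interaction. Transcript calls numbered 0 with any sample left out, a void count, since fewer samples raise the smallest p value the exact test can give.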
